A study of Homo sapiens with 2 samples.

Results

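The 581 regions described here are peaks of DNA accessibility at transcription start sites (TSSs) that were listed for 293T cells treated with methylglyoxal (MGO) and for which the list of untreated cells held no peak. They were selected by a rule on the peak lists themselves. A region was taken when an MGO peak on chromosomes 1 to 22, X or Y lay within 1000 bp of the start of a protein-coding or lncRNA transcript and overlapped no deposited control peak by even 1 bp. They make up 581 of the 13216 MGO peaks at TSSs, or 4.4% (95% Wilson interval 4.06 to 4.76%), and 581 of all 22379 MGO peaks on these chromosomes. Absence from the control list is thus what chose them, and is not a finding about them.

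The assay was ATAC-seq. It uses a transposase, Tn5, to cut and tag DNA where nucleosomes leave it free. 293T is an immortal line from human embryonic kidney that expresses the large T antigen of SV40, and both groups were this line with no further genetic change named in the labels. The MGO group was 1 library of 50000 cells given 0.5 mM MGO for 12 h. The control group was 1 library of 50000 cells without MGO (0 mM), for which 1 label names PBS and another a change to medium without supplement. The number 2 follows the condition in the peak names of both lists, and other libraries were not analysed here. The methods use peaks below a q-value of 0.01 and derive consensus peaks by reproducibility between calls, a step that needs replicates, whereas the lists used here reach to higher q-values and are not stated to be consensus peaks. With 1 library per group no comparison between MGO and control has a replicate check, no p-value between conditions is given, and the 95% intervals cover counting error only and treat peaks as independent. As the lists give no read counts, it is unknown how many reads lie behind each peak. Of 7 genes fixed as markers that the line should have open, 6 had a peak in each library at a start (SOX11 had none).

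MGO is a reactive by-product of glycolysis that forms adducts on arginine and lysine side chains, those of histones included. Most promoters of broadly expressed human genes lie in GC-rich DNA dense in CpG and are open in many cell types, whereas alternative starts inside genes and the starts of many lncRNAs lie in DNA poorer in CpG and are used in fewer cell types. AP-1, a dimer of Fos, Jun and related proteins, binds a short palindrome-like site and is best known from enhancers of cells under stress or growth stimulation.

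Repeats, GC-rich promoter DNA and AP-1 sites recur among these peaks, and 7 stretches are shown from the plus strand of GRCh38 so that each kind can be seen. The first is the start of the peak with the highest −log10 p, in an intron of EHMT1 (chr9:137716137-137716286). Capitals mark each recurrence of its first 8 bases, which return every 29 bases, and the stretch holds 0 CpG.
EHMT1: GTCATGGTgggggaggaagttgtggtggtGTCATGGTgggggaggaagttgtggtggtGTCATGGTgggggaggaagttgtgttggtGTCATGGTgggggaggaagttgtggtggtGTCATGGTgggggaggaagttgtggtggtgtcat
The next are from GC-rich peaks at AATF (chr17:36949131-36949280) and PRKACA (chr19:14117789-14117886), 2 of the strongest whose genes had no control peak at any start. Capitals mark the GC box GGGCGG or its reverse complement CCGCCC, which the stretch from AATF does not hold.
AATF: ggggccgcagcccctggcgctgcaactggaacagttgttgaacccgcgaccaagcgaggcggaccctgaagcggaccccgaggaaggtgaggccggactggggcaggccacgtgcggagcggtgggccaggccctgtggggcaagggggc
PRKACA: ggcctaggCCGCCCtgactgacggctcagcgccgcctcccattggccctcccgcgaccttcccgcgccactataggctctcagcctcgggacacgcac
The last are from peaks with an AP-1 site at PKN2-AS1 (chr1:88327801-88327883), LINC01239 (chr9:22683179-22683265), RAPGEF4 (chr2:173048948-173049034) and S100A2 (chr1:153565850-153565936). Capitals mark that site, TGAGTCA or its reverse complement TGACTCA.
PKN2-AS1: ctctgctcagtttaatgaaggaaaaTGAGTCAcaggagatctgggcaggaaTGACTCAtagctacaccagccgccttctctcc
LINC01239: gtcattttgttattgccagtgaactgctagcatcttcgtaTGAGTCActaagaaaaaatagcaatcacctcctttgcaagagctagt
RAPGEF4: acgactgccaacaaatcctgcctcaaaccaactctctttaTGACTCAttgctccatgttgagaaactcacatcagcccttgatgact
S100A2: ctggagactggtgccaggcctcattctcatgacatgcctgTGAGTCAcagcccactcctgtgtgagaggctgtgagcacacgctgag

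Most of the MGO-only TSS peaks were weak. Each listed peak carries the −log10 of its p-value, which is higher for a stronger peak, and its fold enrichment over the background of the same library. The median −log10 p of the 581 peaks was 4.06 (quartiles 3.72 and 4.54), with a lowest value of 3.30 and a highest of 9.13. The 12635 MGO TSS peaks that overlap a control peak, called shared below, had a median of 7.37. The median fold enrichment was 2.79 (range 1.75 to 4.37) against 3.30 in shared peaks, and the median width 434 bp (range 270 to 2446 bp) against 987 bp. A −log10 q of at least 2, a q-value of 0.01, was reached by 166 of the 581 peaks (28.6%, interval 25.05 to 32.4%) and by 89.5% of shared peaks. These values describe the selected peaks and are no test.

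The share of peaks without a counterpart fell with strength in both directions. Among MGO TSS peaks with a −log10 p of 3 to 4, 31.6% had no control peak (274 of 868). The share was 11.9% from 4 to 5 (236 of 1984), 2.44% from 5 to 6 (47 of 1927), 0.741% from 6 to 8 (22 of 2969) and 0.0366% at 8 or more (2 of 5468). The control list was the longer one, with 35515 peaks on these chromosomes against 22379 in the MGO list. In the opposite direction, 2298 of 14943 control TSS peaks overlapped no MGO peak, or 15.4%, and their share was higher in each of the 5 groups, from 70.9% of the weakest (898 of 1266) to 0.896% of the strongest (68 of 7587). Away from TSSs, 4141 of 9163 MGO peaks had no control peak, or 45.2%.

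**Figure D1:**
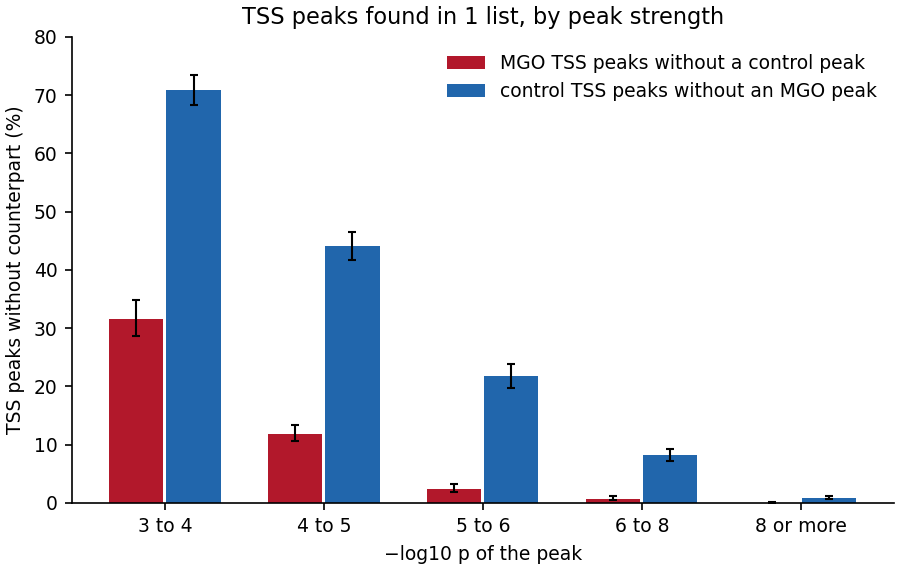
Share of TSS peaks without an overlapping peak in the other list (percent, vertical axis) by the −log10 p of the peak (horizontal axis), for MGO peaks (red) and control peaks (blue), with Wilson intervals. Both shares fall with strength, and the share of control peaks without an MGO peak is the higher one in every group, with 35515 peaks in the control list and 22379 in the MGO list.

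At the edges of the rule, the peaks nearest to a control peak were those of the lncRNA gene ENSG00000267366, 5 bp from it, of ENSG00000286448 at 18 bp and of RPL23A, a ribosomal protein gene, at 22 bp. Just outside, peaks at LINC02303, LINC02802 and TMEM171 overlapped a control peak by 1, 2 and 9 bp and were left out. The included peaks farthest from a start were those of TLE3 at 998 bp, OPN5 at 977 bp and TTLL7 at 962 bp. Control-free peaks near C1orf100, FTCD and ARID1B were left out at 1001, 1004 and 1007 bp. Few peaks were such near misses. The median distance to the nearest control peak was 16216 bp (quartiles 6244 and 36747 bp), 18 peaks lay within 200 bp of one, 39 within 1000 bp, and the farthest, at LINC01683, lay 671710 bp from any.

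The peaks were spread over 571 genes by the nearest start, and no gene had more than 2. The 10 genes with 2 peaks, named after their values were seen, were DGKG, DNAH11, LRP5, MKX, MTHFD1L, PCDH8, PLB1, RAP1GAP, S100A2 and SHANK1. LRP5 encodes a Wnt co-receptor, PCDH8 a protocadherin and MKX a homeobox factor of tendon. The peaks of LRP5 lay at chr11:68312713-68313207 (−log10 p 4.14, GC 81.2%) and chr11:68447321-68447863 (3.85, 61.7%), so that they belonged to separate starts. No MGO-only TSS peak lay within 1000 bp of another MGO peak (smallest distance 1123 bp, median 25754 bp). This distance was not computed for other MGO peaks and is not read as a trait of these.

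Among the strongest peaks at protein-coding genes without a control peak at any start were several ordinary promoters. At MRPL28, a protein of the mitochondrial ribosome, the peak at chr16:370285-370559 covered a start and its middle was in a UTR, with a −log10 p of 8.13 and a fold enrichment of 2.97. At AATF, a nucleolar factor of ribosomal RNA processing, the peak at chr17:36948919-36949389 had a −log10 p of 7.99 and the highest fold enrichment of all 581 peaks, 4.37, and its middle was in a coding exon. The nearest control peak was 403091 bp away. The nearest other MGO peak was 403382 bp away, so this gene stood in a stretch almost free of listed peaks in both libraries. NAT8L, the enzyme that makes N-acetylaspartate in neurons, had its peak at chr4:2058595-2059014, 313 bp from a start, with a −log10 p of 6.90 and a GC content of 79.8%. PRKACA, a catalytic subunit of protein kinase A, had one over a start at chr19:14117789-14118150 with 6.72. LAMB3, a laminin chain of epithelial basement membrane, had one over a start at chr1:209651173-209651498 with 6.55. EIF4G1, the scaffold of the cap-binding complex in translation, had one at chr3:184314405-184315414 with 6.24, and ITPRIPL1, LCP2, PNMA8A and MSH5 followed at 6.19, 6.16, 6.14 and 6.02. LCP2, an adaptor of T cell receptor signalling, was the 1 of these 10 genes with a GC content below 50% in its peak (46.7%).

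**Figure D2:**
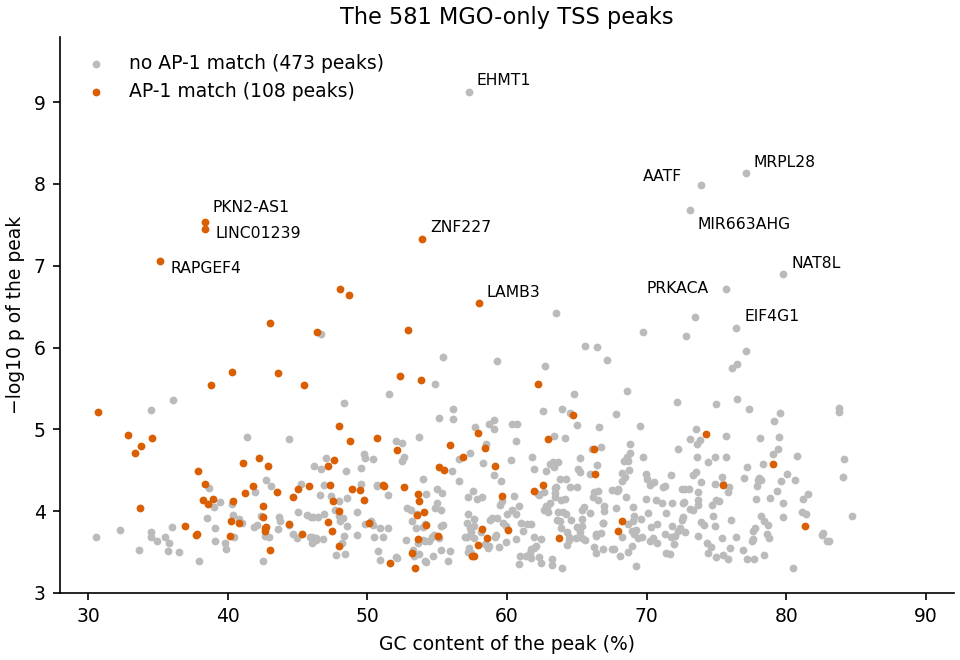
The −log10 p (vertical axis) and the GC content in percent (horizontal axis) of the 581 MGO-only TSS peaks, 1 point per peak, orange where the peak holds an AP-1 match (108 peaks) and grey where it does not (473 peaks). Among the 10 strongest peaks, the orange points lie at 35.1 to 53.9% GC content and the grey ones at 73.1 to 79.8%, apart from EHMT1 at 57.3%.

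The nearest start belonged to a protein-coding gene for 428 peaks (73.7%) and to a lncRNA gene for 153 (26.3%, interval 22.9 to 30.1%). The lncRNA share was 8.67% in shared peaks, which is 17.7 percentage points lower (Newcombe 95% interval 14.2 to 21.4). Within 5 by 5 groups of peaks of similar −log10 p and width, called equal below, the difference was 9.81 points (5.97 to 13.6). These groups matched strength only in part. The share with a −log10 q of at least 2 still differed within them, by −15.8 points (−19.0 to −12.5). The 2298 control TSS peaks without an MGO peak are called control-only below. Their lncRNA share was 30.1%, and the MGO-only share minus this one was −3.78 points (−7.69 to 0.379). The excess over shared peaks came with peaks that had a lncRNA start and no protein-coding one within 1000 bp, 24.3% against 8.01%, 16.3 points more (12.9 to 19.9), or 9.54 points (5.83 to 13.3) at equal −log10 p and width. With any lncRNA start within 1000 bp counted, the shares were 31.3% and 30.2%, 1.12 points apart (−2.60 to 5.09).

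The strongest lncRNA peaks were at MIR663AHG (chr20:26208202-26208539, −log10 p 7.68), PKN2-AS1 (chr1:88327766-88328237, 7.53), LINC01239 (chr9:22682661-22683968, 7.44), LINC01579 (chr15:93829470-93829952, 6.71) and ENSG00000287423 (chr1:233543505-233543972, 6.65). MIR663AHG is the host gene of a microRNA, and its peak covered a start with a GC content of 73.1%. The peaks of PKN2-AS1, LINC01239 and LINC01579 were intronic with GC contents of 38.3%, 38.4% and 48.0%. Of the 153 lncRNA peaks, 85 were at genes known only by an identifier, 31 at LINC genes, 13 at antisense genes named -AS and 5 at microRNA host genes. MGO-only peaks made up 12.3% of the 1248 MGO TSS peaks nearest a lncRNA start, 12.8% for LINC genes (31 of 243) and 12.4% for genes with an identifier only (85 of 686). Among protein-coding starts they made up 3.58% (428 of 11968). The share was 4.62% at zinc finger genes named ZNF (16 of 346), 1.44% at solute carriers (3 of 208) and 0% at histone genes (0 of 33). These are counts by gene name with few peaks in most classes.

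The peaks lay more often at minor starts than shared peaks did. A start lay inside the peak for 301 of 581 (51.8%) against 93.7% of shared peaks, which are wider. The difference was −41.9 points, and −25.4 (−29.7 to −21.1) at equal −log10 p and width. In control-only peaks a start lay inside for 58.1%, and the MGO-only share minus this one was −6.33 points (−10.9 to −1.81). The start of the transcript that the annotation marks as canonical for a gene lay within 1000 bp of 352 peaks (60.6%, interval 56.6 to 64.5%) against 91.5%, a difference of −31.0 points (−35.0 to −27.0), and of −21.0 points (−25.2 to −16.8) at equal −log10 p and width. For control-only peaks the share was 56.2%. The nearest start was that of a retained-intron transcript, an incompletely spliced form, for 11.4% against 1.54% of shared peaks, 6.90 points more (4.28 to 9.53) at equal −log10 p and width. In control-only peaks it was 9.88%, and the MGO-only share minus this one was 1.48 points (−1.18 to 4.55). The middle of the peak was in an intron in 48.0% against 31.3%, and in a UTR in 20.1% against 33.5%, differences of 13.6 (9.17 to 18.1) and −8.02 points (−11.7 to −4.33) at equal −log10 p and width. The middle was in an intron in 46.95% of control-only peaks, 1.07 points less than in MGO-only peaks (−3.46 to 5.61). It was in a UTR in 15.2% of control-only peaks, 4.91 points less than in MGO-only peaks (1.49 to 8.64). Of the 229 peaks away from a canonical start, 189 (82.5%) lay downstream of that of their nearest gene. For 145 of the 229 (63.3%) a control peak lay within 1000 bp of that canonical start, and for 136 an MGO peak did as well. The same shares were not computed for shared or control-only peaks or for all annotated starts. These counts are thus not read as a trait of the peaks.

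For 218 of the 581 peaks (37.5%, interval 33.7 to 41.5%), a gene with a start within 1000 bp of the peak had a control peak at a different start. A further 34 (5.85%) had a control peak near the same start only, and 329 (56.6%, interval 52.6 to 60.6%) had none at any start. The share with a control peak at a different start was 21.96% in shared peaks. For control-only peaks the reverse was counted, an MGO peak at a different start, and was found for 36.6%. That is not the same measure. Since the peak lists also chose these sets, the shares are a description and no difference between them is drawn. Protein-coding genes made up most of the group. A control peak at a different start was found for 193 of 428 protein-coding peaks (45.1%) and for 25 of 153 lncRNA peaks (16.3%). Correspondingly 49.5% of protein-coding and 76.5% of lncRNA peaks had none at any start. As the control list chose the peaks, these shares too are a description only.

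**Figure D3:**
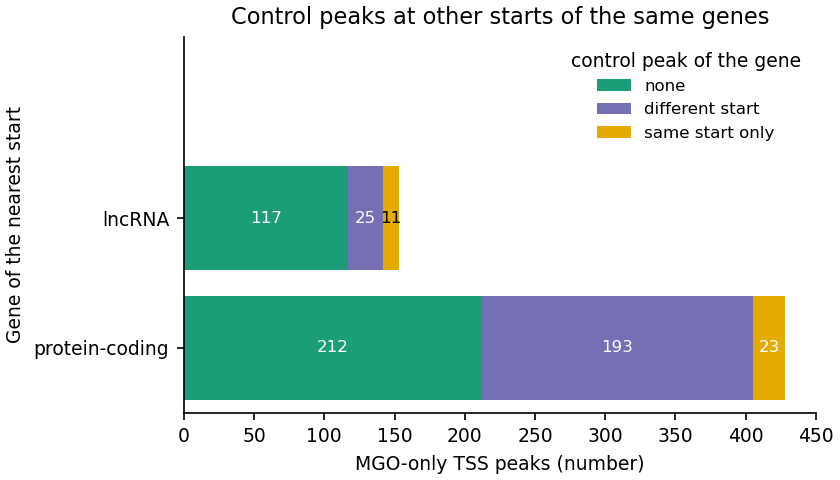
Number of MGO-only TSS peaks (horizontal axis) by the gene type of the nearest start, split by whether a gene at the peak has no control peak at any start, one at a different start, or one near the same start only. Of 428 protein-coding peaks 193 had a control peak at a different start, and of 153 lncRNA peaks 25.

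The groups differed in the kind of start, but the split itself partly sets this. A gene whose canonical start is at the peak can have a different-start control peak only at a non-canonical start. In shared control TSS peaks a canonical start lay within 1000 bp of 91.6%. A canonical start lay within 1000 bp of 273 of the 329 peaks whose genes had no control peak (83.0%) and of 55 of the 218 with a control peak at a different start (25.2%). In the latter the control peak had the higher −log10 p of the pair in 183 of 218 (83.9%). The median was 6.88 in the control list against 4.01 for the MGO-only peak in its own list. The values come from different libraries, and MGO-only peaks were weak as a set (median 4.06, against 9.13 in shared control TSS peaks). This order is thus a description and no test. For 174 of the 218 (79.8%) that control peak also overlapped an MGO peak, so that the other start was listed as open in both libraries. Among all control TSS peaks 12645 of 14943 did so, and the share is not read as a trait of these genes. The median distance between the pair was 27931.5 bp (range 1254 to 827634 bp).

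EHMT1, a histone H3 lysine 9 methyltransferase, had the strongest peak of all, at chr9:137716137-137716508 in an intron 97317 bp downstream of its canonical start (−log10 p 9.13, fold enrichment 4.06). The control peak nearest to it at another start, chr9:137618218-137618845, had a −log10 p of 5.38 and overlapped an MGO peak. ZNF227, a zinc finger gene, was the reverse case. Its MGO-only peak covered a start at chr19:44212420-44213044 (7.33), and its control peak 4667 bp away had a −log10 p of 5.94 and overlapped no MGO peak, so that the listed start differed between the libraries. RAPGEF4, a cAMP-activated exchange factor for Rap proteins, had an intronic peak at chr2:173048840-173049488 (7.06) that was 84 bp from a control peak. The nearest control peak at a different start of the gene was 188352 bp away, and its canonical start also lay in a control peak. At POMT2, an O-mannosyltransferase, the peak at chr14:77303186-77303931 (6.19) stood 16404 bp from a control peak of 18.4 at another start. UBA1, the ubiquitin-activating enzyme, had a peak at chrX:47190665-47191072 (5.78) upstream of its canonical start and a control peak of 9.82 located 2097 bp away. DNAH11, a heavy chain of ciliary dynein, had peaks at chr7:21617138-21618081 (5.68) and chr7:21851014-21851304 (3.68), both in introns, and a control peak of 14.5 at its canonical start. PLB1, TMEM245, ITPRIP and MSI2 completed the 10 strongest protein-coding peaks of this group, at 6.22, 5.70, 5.65 and 5.56, and all 4 lay in introns.

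**Figure D4:**
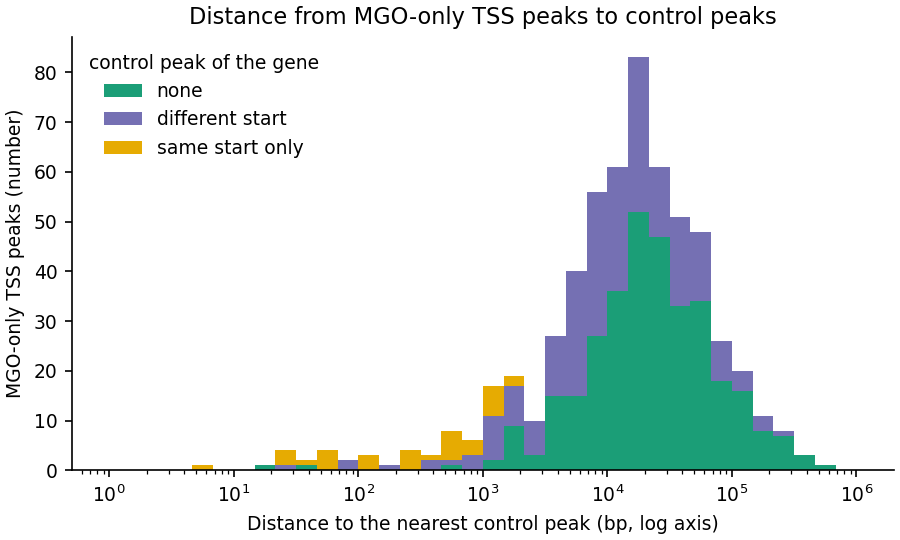
Number of MGO-only TSS peaks (vertical axis) by the distance to the nearest control peak in bp (log axis), stacked by whether a gene at the peak has no control peak, one at a different start, or one near the same start only. All but 39 peaks lie more than 1000 bp from a control peak, and most of those near the same start only lie closer.

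The peaks had a median GC content of 60.9% (quartiles 50.4 and 69.7%, range 30.6 to 84.7%), against 65.8% in shared peaks, 55.7% in control-only peaks and 44.8% in MGO-only peaks away from TSSs. The ratio of observed to expected CpG had a median of 0.538 against 0.795 in shared peaks. Of all MGO TSS peaks with a GC content below 50%, 22.3% were MGO-only (143 of 640). The share was 5.08% from 50 to 60% (137 of 2699), 2.62% from 60 to 70% (159 of 6077) and 3.74% at 70% or more (142 of 3800). The bands held different starts. A canonical start was near 37.8% of the MGO-only peaks below 50% GC and near 79.6% of those at 70% or more, while the nearest start was that of a lncRNA for 42.7% and 7.75%. Tn5 cutting and PCR both depend on base composition, and their part in these shares was not tested.

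The AP-1 site TGAGTCA, on either strand, was in 108 of the 581 peaks (18.6%, interval 15.6 to 21.95%) and in 9.01% of shared peaks, although those are wider. The difference was 9.57 points (6.58 to 13.0), and 12.1 points (8.86 to 15.4) at equal −log10 p and width. It was 18.0 points with MGO peaks of a −log10 q of at least 2 alone, 6.31 with protein-coding genes only and 5.63 with canonical starts only. Control-only peaks, which were also weak and had a lower GC content, held it in 8.62%, 9.97 points less than MGO-only peaks (6.78 to 13.5). Away from TSSs it was in 24.8% of MGO-only and 19.4% of shared MGO peaks. The same letters written backwards, ACTGAGT, were in 7.23% and 6.77% of MGO-only and shared peaks, 0.454 points apart (−1.44 to 2.89). At equal −log10 p and width they were also more frequent in MGO-only peaks, by 2.93 points (0.694 to 5.16) beside 12.1 for the AP-1 site. In the central 270 bp the unmatched difference was 1.90 points (0.674 to 3.72) beside 6.89 for the AP-1 site. At equal −log10 p and width it was 1.65 points there (0.0915 to 3.21) beside 6.26. Within the central 270 bp of each peak the site was in 8.78% of MGO-only, 1.88% of shared and 3.74% of control-only peaks, in 14.9% of MGO-only and 9.26% of shared MGO peaks away from TSSs, and in 4.01% of 194296 windows of the same length around all annotated starts, with a position used on both strands counted for each.

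The site was concentrated in the AT-richer peaks. Below 50% GC, 59 of 143 MGO-only peaks held it (41.3%) against 19.5% of shared peaks of the same band, 21.7 points more (13.2 to 30.6). From 50 to 60% it was in 24.8% against 13.2%, 11.6 points more (5.00 to 19.6). From 60 to 70% it was in 6.92% against 8.74%, and at 70% or more in 2.82% against 5.11%, with differences of −1.82 (−4.92 to 3.27) and −2.30 points (−4.17 to 1.959). It was in 43 of 153 lncRNA peaks (28.1%) and 65 of 428 protein-coding peaks (15.2%), 12.9 points apart (5.42 to 21.1), and in 58 of 229 peaks away from a canonical start (25.3%) against 50 of 352 near one (14.2%), 11.1 points apart (4.55 to 18.0). With 3 matches each, LINC01239, RAPGEF4 and S100A2, a calcium-binding protein of epithelial cells, had the most, while 25 peaks held 2 and 80 held 1. A match is a description of the sequence and not a measured binding site.

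**Figure D5:**
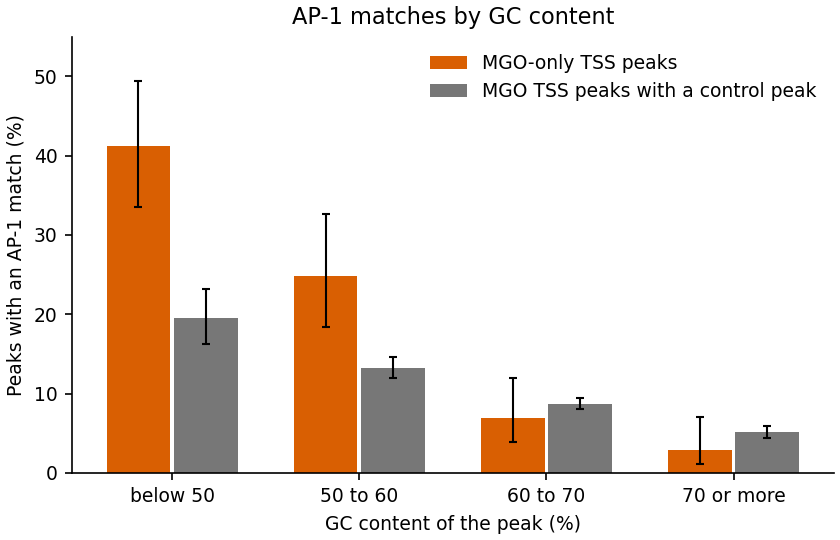
Share of peaks with an AP-1 match (percent, vertical axis) by the GC content of the peak (horizontal axis), for MGO-only TSS peaks (orange) and MGO TSS peaks that overlap a control peak (grey), with Wilson intervals. The share in MGO-only peaks is the higher one below 60% GC, at 41.3% against 19.5% below 50% and 24.8% against 13.2% from 50 to 60%, and falls to 2.82% at 70% or more.

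Of the promoter motifs, the GC box and the ETS site were less frequent than in shared peaks and the TATA box more frequent in the central 270 bp. There the GC box GGGCGG, the site of Sp1 and related factors, was in 39.6% of MGO-only and 66.5% of shared peaks (37.7% of all start windows), and the ETS site CCGGAA in 11.0% and 20.2% (15.1%). The TATA box TATAAA was in 7.40% and 2.85% (10.8%), 4.55 points more than in shared peaks (2.67 to 6.99), but over whole peaks in 13.6% and 13.7%, −0.134 points apart (−2.76 to 2.95), or 4.56 points (1.62 to 7.51) at equal −log10 p and width. In control-only peaks the GC box was in 31.2%, the ETS site in 9.01% and the TATA box in 12.1%. The MGO-only share minus theirs was 8.43 (4.08 to 12.9), 2.01 (−0.600 to 5.02) and −4.65 points (−6.98 to −1.92). The CCAAT box CCAAT was in 23.9% and 21.6% (31.3%), the antioxidant response element TGACNNNGC in 12.4% and 11.1% (12.1%), the heat shock element GAANNTTC in 3.96% and 3.26% (5.93%) and the E-box CACGTG in 4.82% and 5.63% (6.28%). The cAMP response element TGACGTCA, which shares letters with the AP-1 site, was in 0.516% and 1.39% (1.62%). For these last 5 motifs the interval of the difference from shared peaks included 0. At equal −log10 p and width, however, the cAMP response element differed by −1.02 points (−1.73 to −0.303) in the central 270 bp, and over whole peaks the E-box differed by −3.68 points (−6.32 to −1.05) and the cAMP response element by −1.69 (−2.76 to −0.616). All motifs were searched on both strands.

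The stress and metabolic lists held MGO-only TSS peaks at a share near that of all genes. Of 105 genes in 8 lists with an MGO peak at a start, 3 had an MGO-only one (2.86%), beside 654 of 17039 among all genes (3.84%). These were JUNB and MAFK, among 17 AP-1 and Maf family genes, and PGK1, among 16 genes of glycolysis. None was found among 17 genes of NRF2 and its targets, 12 of HSF1 and heat shock, 14 of ATF4 and the integrated stress response, 12 of p53, 7 of MGO detoxification and 10 of NF-kB and inflammation. The JUNB peak at chr19:12791454-12791818 had a −log10 p of 3.90 and covered the canonical start, which was 9966 bp from the nearest control peak. The control peak at a different start that was counted for it, 13252 bp away, was at another start of HOOK2, a gene with a start within 1000 bp of the same MGO-only peak. The MAFK peak at chr7:1537056-1537695 (3.76, 1 AP-1 match) was intronic and the PGK1 peak at chrX:78065043-78065388 (3.69, 2 AP-1 matches) was in a noncoding exon upstream of the canonical start. At both genes the canonical start itself lay in a control peak and in an MGO peak.

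Sequences with further copies in the genome, where reads are hard to place, were more frequent than in shared peaks. Of the 581 peaks, 8 (1.38%) were tandem repeats, taken as at least 70% of bases identical at 1 lag of 2 to 120 bases, against 0.103% of shared (13 of 12635) and 0.261% of control-only peaks (6 of 2298). The strongest peak of all was one of them, since 95.6% of bases in the EHMT1 peak were identical at a lag of 29 bases. Others, named after their values were seen, were at NUP93, SDHA, SDK1, ENSG00000233021, ENSG00000235994 and ENSG00000273877. The middle 50 bases had a further exact copy for 61 peaks (10.5%), against 3.98% of shared peaks, 6.52 points more (4.25 to 9.29), and against 7.18% of control-only peaks, 3.32 points more (0.812 to 6.25). Of the named peaks, that of AATF had 1 copy of its middle 50 bases on alternate or unplaced contigs and that of MSH5 6. Also among the named peaks, the middle 50 bases occurred 85 times on the chromosomes for TTLL7, 8 for SDHA, 6 for ENSG00000286448 and ENSG00000235994, 5 for EHMT1 and 3 for NUP93. On other contigs TTLL7 had 2 further copies and SDHA 14. Counts on the chromosomes were higher at some peaks not named above, such as 848 at ENSG00000266340 and 598 at ENSG00000288562. The authors removed reads that map to several places, and the part of such copies in these peaks was not tested. Without the peaks that held a repeat or a copy, 517 remained.

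By chromosome, MGO-only peaks made up 9.09% of the MGO TSS peaks on chromosome 19 (67 of 737) and 8.45% on chromosome 17 (56 of 663), and 2.34% on chromosome 18 (5 of 214), the lowest share apart from chromosome Y with 0 of 9. Chromosome 19 held 11.5% of MGO-only and 5.30% of shared peaks, and at equal −log10 p and width the difference was 2.27 points (−0.597 to 5.14). For chromosome 17 the shares were 9.64% and 4.80%, and that difference was 2.53 points (−0.0605 to 5.11). Control-only peaks held 6.05% on chromosome 19 and 5.18% on chromosome 17. The MGO-only share minus theirs was 5.48 (2.91 to 8.48) and 4.46 points (2.10 to 7.26).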

How the data were processed

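ATAC-seq peak lists of 1 control and 1 MGO library of 293T cells were read as deposited. The authors aligned reads to GRCh38 with BWA 0.7.15, used Picard to remove reads that were mitochondrial or mapped to several places, subset reads to equal depth, and obtained broad peaks of each library with MACS2 outside blacklisted regions. Picard is 2.16.0 per the labels. Per the file headers and format, each deposited peak has a fold enrichment (a ratio), a −log10 p, a −log10 q and a score, which was not used. Both lists extend to a q of 0.0986 in control and 0.0988 in MGO.

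Starts were 194269 positions of protein-coding and lncRNA transcripts in GENCODE 44 (GRCh38). A peak took the gene of its nearest start, protein-coding first at equal distance. GC content, motifs and copies of the middle 50 bases (455 contigs) came from the GRCh38 sequence. Differences of shares have Newcombe intervals, and those at equal −log10 p and width were weighted over 5 by 5 groups of MGO TSS peaks with Mantel-Haenszel weights. Strength and width still varied within a group, so equal here means similar. The overlap and weighting steps were tested on simulated data and against bedtools. The regions, gene lists and motifs were chosen with earlier results of these data known. Peaks were named by rank of −log10 p or fold enrichment in each group, by the edges of the rule, by the gene lists and by 3 or more AP-1 matches. Python 3.11.15, numpy 2.4.6, pandas 2.3.3, scipy 1.17.1, pysam 0.24.0 and matplotlib 3.10.9 were used. Some items are not reported here.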

Additional observations from a re-analysis of the deposited data

How the results depend on the processing

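No paired analysis was possible because each condition has a single library here and no test between them was made. Of 60 values recomputed under other settings, 38 moved by less than their interval or, for counts, by less than 1.5 times, 22 moved further and 0 changed direction. With only MGO peaks of a −log10 q of at least 2, 166 peaks were left of 581, with a median −log10 p of 4.90, a median GC content of 62.8% and an AP-1 difference of 18.0 points. With that limit on both lists the lncRNA share was 17.8%, the share with a control peak at a different start 29.9%, the median −log10 p 5.07 and the GC content 65.9%. The GC content was 62.7% with a TSS window of 500 bp and 58.1% with 2000 bp. With protein-coding genes only, 44.8% had a control peak at a different start, the GC content was 63.4% and the AP-1 difference 6.31 points. With canonical starts only, 352 peaks were left, the lncRNA share was 34.7%, the share with a control peak at a different start 0% because each gene then has 1 start, the GC content 64.7% and the AP-1 difference 5.63 points. Counting any lncRNA start gave a share of 31.3%, and the motif written backwards a difference of 0.454 points. At equal −log10 p and GC content, a setting chosen after seeing the data, the lncRNA difference from shared peaks was 8.74 points in place of 17.7. The AP-1 difference was then 7.32 points in place of 9.57. The interval of the AP-1 difference lay above 0 in 12 of 13 settings, the exception being the backwards motif. The interval of that motif lay above 0 at equal −log10 p and width (2.93 points) and, without that matching, in the central 270 bp (1.90 points). The causes of these shifts were not tested beyond what a setting does by construction. The lists hold no read counts, so no limit from depth could be computed.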
